A study of Drosophila melanogaster with 18 samples.

Results

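The genes described here encode proteins of stress granules, processing bodies (P-bodies) and cytoplasmic mRNA decay in Drosophila melanogaster. They were chosen by name, with earlier results of these data known. Of the 17658 genes with a deposited value they are 10: rin, Atx2, bel, me31B, tral, Edc3, Ge-1, Upf1, Upf2 and pcm. All 10 passed the filter on low values, an average of 1 FPKM or more across the libraries, which left 9921 genes for testing.

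RNA came from whole adult females aged 1 to 5 days, 10 flies in each library, kept on a mashed-potato diet at 25 °C. Control flies were w;;+/UAS-Tudor-SN RNAi and knockdown flies were w;;Da-GAL4/UAS-Tudor-SN RNAi, so both carried the RNAi hairpin (Bloomington #34865) and the knockdown flies alone carried the ubiquitous Daughterless-GAL4 driver. Flies with the driver and no hairpin were not analysed here, and an effect of the driver cannot be told apart from one of the knockdown. Flies of each genotype were held for 6 h in 2% O2 or in 6% O2, or were kept in normoxia at atmospheric oxygen, which made 6 groups of 3 libraries. Nothing in the labels says whether the 3 libraries of a group came from separate crosses, so the p-values measure the spread between these pools of flies.

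Stress granules are assemblies of stalled translation complexes that form in the cytoplasm when initiation of translation is inhibited, as under heat, oxidative stress or lack of oxygen. P-bodies hold translationally repressed mRNAs together with the enzymes that remove the cap and degrade the body of the transcript from its 5′ end. Nonsense-mediated decay, which the Upf proteins carry out, removes transcripts on which translation stops too early. In the fly ovary many of these proteins also sit in the germ granules and mRNA transport particles of nurse cells and oocyte. Tudor-SN, a protein with staphylococcal-nuclease domains and a Tudor domain, is itself found in stress granules, and the study asked how its loss changes transcripts under low oxygen.

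The gene targeted by the RNAi was low in every knockdown library. Tudor-SN averaged 214.0 ± 4.15 scaled FPKM in control and 19.87 ± 1.43 in knockdown flies in normoxia (SD, n = 3), 217.0 ± 3.22 and 15.91 ± 2.20 at 6% O2, and 167.5 ± 6.55 and 5.563 ± 0.449 at 2% O2. The genotypes did not overlap at any oxygen level, and the 2-sided exact permutation p was 0.1 each time, the smallest that 3 against 3 libraries allow. FPKM carry no read total. The spacing of low values gave a relative depth of 0.964 to 1.016 in 17 libraries and of 0.875 in knockdown 2% O2 replicate 3. That library also stood apart on the second principal component, at 0.95 against -15.55 and -16.81 for the other 2 of its group. Some of the counts, medians and differences at 2% O2 are also given without it, but not all. All 12 germline genes in the list of markers of the female germline were expressed in every library, among them osk at 402.5 to 594.7 scaled FPKM, while 8 genes of males summed to 0.1002 to 2.096 per library and SP and Mst84Da were listed at 0 in all 18.

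Levels of the 10 genes spanned more than a factor of 100. FPKM divides by transcript length, so they can be compared between genes. me31B was the most abundant at a mean of 1354 scaled FPKM over all libraries (rank 117 of the tested genes by mean), and tral, whose protein binds that of me31B, followed at 589.9 (rank 210). rin stood at 154.1 and bel at 104.2. Edc3 (39.69), Atx2 (30.76), Ge-1 (29.34), Upf1 (24.58) and pcm (21.04) lay close together, and Upf2 was the lowest at 10.91 (rank 7087). No gene here shared exonic sequence with another annotated gene. On build BDGP6 the 3 genes of the X chromosome were Upf1 (chrX:11899996-11905371), Upf2 (chrX:8070244-8075466) and pcm (chrX:19485759-19492011). Chromosome arm 3R held rin (chr3R:13647004-13654527), bel (chr3R:8654975-8660761) and Atx2 (chr3R:15408423-15417277). tral lay at chr3L:12515059-12520954 and Edc3 at chr3L:17525333-17529861, and arm 2L held me31B (chr2L:10239341-10242172) and Ge-1 (chr2L:11095150-11100888).

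In 2% O2 the transcripts of all 10 genes fell in knockdown flies. They stood at 50.6% (Upf2) to 80.5% (me31B) of their normoxic mean after 6 h. Of all tested genes 27.0% were called lower in that comparison at an adjusted p under 0.05 (limma, Benjamini-Hochberg over the 9921 genes). In control flies 7 of the 10 fell, against 14.7% of all tested genes called lower, and Atx2, me31B and Edc3 did not pass. None of the 10 was called higher at 2% O2 in either genotype. The median log2 difference of the 10 genes was -0.243 in control and -0.568 in knockdown flies, beside -0.0102 and 0.00223 over all tested genes. Because these are extracts of whole flies, fewer cells of a type and less RNA per cell cannot be told apart.

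**Figure D1:**
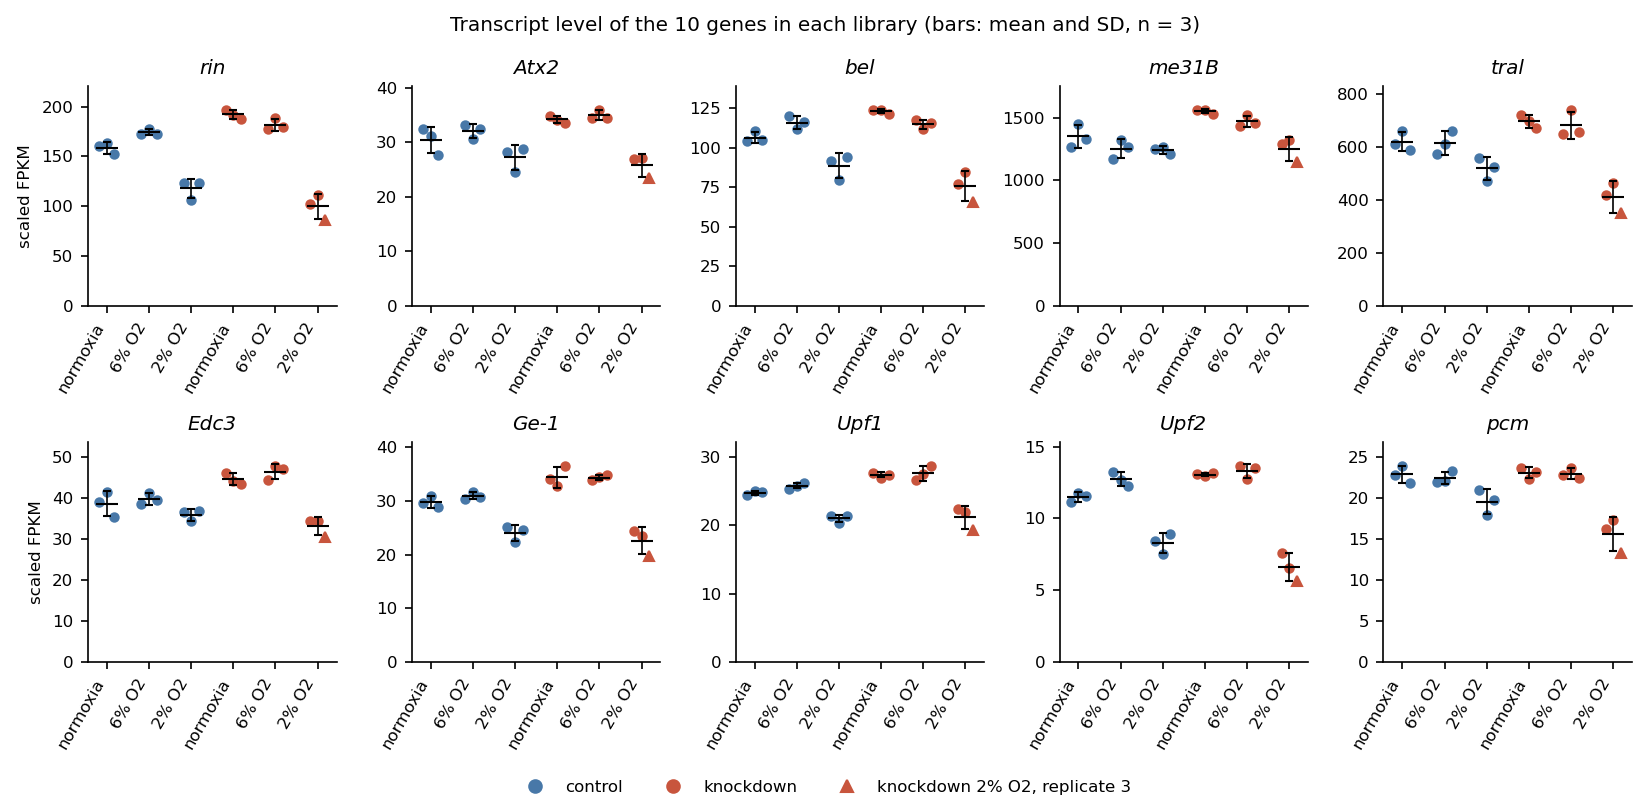
Transcript level in scaled FPKM (vertical axes, from 0) of each gene in the 18 libraries, by genotype and oxygen level. Points are libraries, bars are the mean and SD of 3, and the triangle is knockdown 2% O2 replicate 3. That library was the lowest of the 18 for all 10 genes, and for 18.7% of all tested genes.

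Of the genes of stress-granule assembly, rin moved most. It encodes Rasputin, the fly counterpart of mammalian G3BP, an RNA-binding protein that nucleates stress granules. Control libraries held 160.0, 163.6 and 152.2 scaled FPKM of rin in normoxia, and 123.5, 106.5 and 123.8 at 2% O2. In knockdown flies rin read 197.1, 191.6 and 187.8 in normoxia, and 101.8, 111.5 and 86.53 at 2% O2. The normoxic and 2% O2 libraries did not overlap in either genotype, and the knockdown mean was the higher in normoxia and the lower at 2% O2. On the log2(scaled FPKM + 1) scale rin fell by 0.43 in control flies (SE 0.0748, adjusted p = 0.000471, limma) and by 0.94 in knockdown flies (SE 0.0748, adjusted p = 6.36e-08), to 74.4% and 52.0% of the normoxic means.

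Atx2 encodes Ataxin-2, an RNA-binding protein required for stress granules and for translational control. Its control libraries held 27.73 to 32.38 scaled FPKM in normoxia and 24.59 to 28.76 at 2% O2, with an overlap, and the difference of -0.16 did not pass (adjusted p = 0.106, limma). In knockdown flies Atx2 went from 33.49 to 34.86 scaled FPKM in normoxia down to 26.82, 27.11 and 23.37 at 2% O2, a log2 difference of -0.40 (SE 0.0702, adjusted p = 0.000197, limma).

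bel encodes Belle, the fly DDX3, a DEAD-box RNA helicase of translation initiation that enters stress granules. Control flies had 104.1, 110.4 and 104.7 scaled FPKM of bel in normoxia against 91.81, 79.80 and 94.42 at 2% O2. Knockdown flies had 123.9, 124.3 and 121.6 against 77.40, 84.47 and 65.43. Both pairs of groups were separate. The log2 difference was -0.26 in control (adjusted p = 0.015) and -0.70 in knockdown flies (adjusted p = 1.54e-06, limma). In control flies bel no longer passed when control normoxia replicate 2 (adjusted p = 0.0581) or control 2% O2 replicate 2 (adjusted p = 0.0848) was left out.

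The 4 P-body genes differed in how far they moved. me31B encodes a DEAD-box helicase of the DDX6 family that represses translation in oocytes and activates decapping. It changed least of the 10 genes in knockdown flies, from 1562, 1565 and 1531 scaled FPKM in normoxia to 1287, 1320 and 1143 at 2% O2, a log2 difference of -0.32 (SE 0.0628, adjusted p = 0.000525, limma). Control flies held 1269, 1453 and 1334 scaled FPKM of me31B in normoxia and 1250, 1268 and 1210 at 2% O2. The nearest libraries of the control groups almost met, and the difference of -0.12 did not pass (adjusted p = 0.172, limma). At 2% O2 the genotypes had the same level within the spread, 1243 ± 29.4 in control and 1250 ± 94.0 scaled FPKM in knockdown flies (SD, n = 3).

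tral encodes Trailer hitch, an LSm14-family protein that binds me31B and organises secretory-pathway mRNAs in the ovary. In knockdown flies it read 721.2, 696.4 and 670.5 scaled FPKM in normoxia against 417.9, 464.9 and 348.5 at 2% O2, which left 59.0% of the normoxic mean (log2 difference -0.77, SE 0.0939, adjusted p = 5.58e-06, limma). Control flies had 608.9, 661.0 and 589.0 against 558.0, 472.0 and 524.8 scaled FPKM. The control difference was -0.26 with an adjusted p of 0.048 (limma), and it passed in 7 of 16 alternatives. Without one of the libraries its adjusted p was 0.0553 to 0.195, for control normoxia replicate 1, 2 or 3 and control 2% O2 replicate 2 or 3.

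Edc3 and Ge-1 encode enhancers of decapping, the first an adaptor that binds me31B and the second a scaffold, EDC4 in mammals. Edc3 stood at 39.07, 41.35 and 35.42 scaled FPKM in control normoxia and at 36.49, 34.27 and 36.76 in control 2% O2, and these groups overlapped (log2 difference -0.10, adjusted p = 0.224, limma). In knockdown flies Edc3 went from 46.15, 44.08 and 43.37 to 34.44, 34.29 and 30.54 scaled FPKM (log2 difference -0.42, SE 0.0605, adjusted p = 2.96e-05, limma). Ge-1 fell in both genotypes. Its ranges were 28.84 to 30.94 and 22.26 to 25.15 scaled FPKM in control normoxia and 2% O2 (log2 difference -0.30, adjusted p = 0.00327, limma). In knockdown flies they were 32.72 to 36.54 and 19.68 to 24.41 (log2 difference -0.59, adjusted p = 3.37e-06, limma).

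Upf1 and Upf2 act in 1 complex of nonsense-mediated decay but differed in the size of their fall. Upf1, the RNA helicase of the pathway, varied least of the 10 genes among the control libraries in normoxia (CV 1.10%). It held 24.42 to 24.95 scaled FPKM in control normoxia and 20.30 to 21.32 in control 2% O2 (log2 difference -0.23, SE 0.0516, adjusted p = 0.00333, limma), and 26.95 to 27.67 and 19.26 to 22.36 in knockdown flies (log2 difference -0.36, adjusted p = 3.07e-05, limma). Upf2, which bridges Upf1 to the exon junction complex through Upf3, had with rin the largest falls of the 10 genes in control flies. Control flies had 11.13, 11.78 and 11.54 scaled FPKM of Upf2 in normoxia and 8.429, 7.552 and 8.922 at 2% O2. Knockdown flies had 13.08, 12.94 and 13.13 against 7.579, 6.566 and 5.659. No library at 2% O2 reached the normoxic range in either genotype. The log2 differences of Upf2 were -0.43 (SE 0.0823, adjusted p = 0.00104) and -0.89 (SE 0.0823, adjusted p = 3.15e-07, limma), and since Upf2 is low the pseudocount of 1 makes them somewhat smaller than the ratios of the means, 72.3% and 50.6%.

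pcm encodes Pacman, the cytoplasmic 5′-to-3′ exonuclease XRN1 of flies, which degrades decapped mRNA. Its control libraries held 22.81, 23.88 and 21.81 scaled FPKM in normoxia and 20.89, 17.89 and 19.70 at 2% O2 (log2 difference -0.22, adjusted p = 0.0419, limma). In knockdown flies pcm read 23.65, 22.33 and 23.14 in normoxia and 16.22, 17.29 and 13.32 at 2% O2 (log2 difference -0.54, SE 0.077, adjusted p = 2.61e-05, limma). The groups were separate in both genotypes. The control call held in 10 of 16 alternatives. Among fits without 1 library it ended without control normoxia replicate 1 or 2 or control 2% O2 replicate 2 or 3, with adjusted p between 0.0795 and 0.177.

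**Figure D2:**
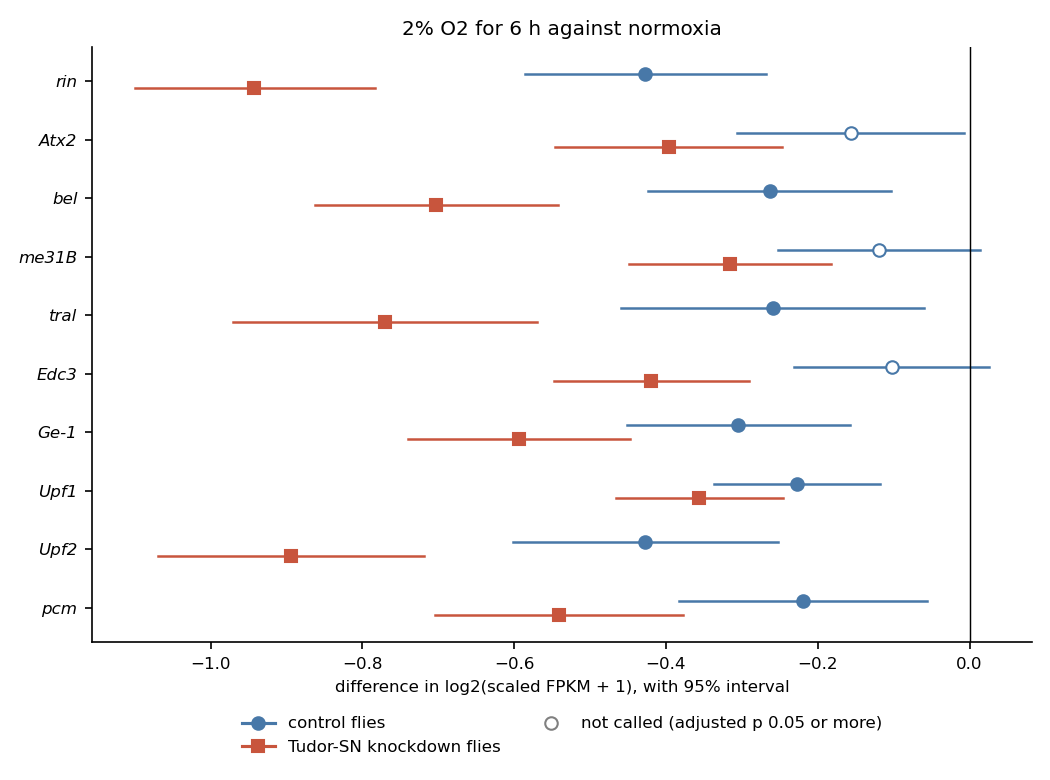
Difference in log2(scaled FPKM + 1) between 2% O2 for 6 h and normoxia (horizontal axis) for each gene, with 95% intervals from the limma fit, in control (circles) and knockdown flies (squares). Open symbols are differences that did not pass, Atx2, me31B and Edc3 in control flies, and every knockdown interval lies below 0.

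Groups at 2% O2 and normoxia did not overlap for 8 of the 10 genes in control flies, where 22.1% of all tested genes were separate and lower, and for all 10 in knockdown flies, where 30.6% were. For 7 of the 10 genes the 6 libraries at 2% O2 lay below the other 12, as they did for 9.14% of all tested genes. Without knockdown 2% O2 replicate 3 all 10 genes were still called lower, with a median difference of -0.468. Their log2 differences then ran from -0.25 for me31B (adjusted p = 0.00307) to -0.84 for rin (adjusted p = 1.15e-07, limma), with Upf2 at -0.80, tral at -0.65, bel at -0.60, Ge-1 at -0.50, pcm at -0.43, Edc3 at -0.36, Atx2 at -0.33 and Upf1 at -0.29. The control count was 4 of 10 without control normoxia replicate 2 or without control 2% O2 replicate 2.

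Lists of marker genes moved in the same comparison. Between normoxia and 2% O2 in knockdown flies, the summed level of 12 female germline genes went from 1882 to 1934 scaled FPKM up to 1938 to 2218. Of these genes 3 were called higher and 6 lower, where 28.5% and 27.0% of all tested genes were. The median log2 difference of the 12, unlike the sum, was below 0, at -0.271. Their mean log2 level, centred over all libraries, was 0.108 to 0.12 in normoxia and -0.137 to 0.1 at 2% O2. The 8 photoreceptor genes summed to 1711 to 1932 in normoxia and 2323 to 2534 at 2% O2 (5 higher, 0 lower), and the 10 muscle genes to 2708 to 3106 and 3053 to 5257 (3 higher, 0 lower). The 8 gut genes summed to 991.9 to 1606 and 1319 to 1880 (3 higher, 0 lower), and the 3 yolk genes to 2148 to 3069 and 3009 to 4922 (1 higher, 0 lower). The 13 eggshell genes ran from 1475 to 5157 in normoxia and from 241.8 to 3000 at 2% O2, with 3 called lower. Expressed relative to the mean of the germline genes in the same library, all 10 genes were still called lower, at a median of -0.46 beside 0.11 for all tested genes, of which 52.2% were called in either direction. In control flies the germline genes summed to 1609 to 1746 in normoxia and 1767 to 1850 at 2% O2 (2 higher, 3 lower). Their median log2 difference was -0.106. The eggshell genes of control flies summed to 549.1 to 5162 and 292.7 to 2060 (3 lower) and the gut genes to 1682 to 2155 and 1598 to 1685 (3 higher, 1 lower). In that comparison 15.4% of all tested genes were called higher and 14.7% lower. No muscle, photoreceptor or yolk gene of the lists was called between normoxia and 2% O2 in control flies. The part of the lists other than the germline genes was not tested.

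At 6% O2 none of the 10 genes was called against normoxia, in either genotype. No gene of the 9921 was called in control flies by limma, 13.4% had an unadjusted p under 0.05, and none of those were among the 10. In knockdown flies 0.625% of tested genes were called and 7.52% had an unadjusted p under 0.05. Between 6% and 2% O2 the fall was as clear as from normoxia. In knockdown flies all 10 fell (25.5% of tested genes called lower, median of the 10 genes -0.562, or -0.462 without knockdown 2% O2 replicate 3), and in control flies 6 did (15.2% called lower). me31B, tral, pcm and Edc3 were the 4 that did not pass in control flies, at log2 differences of -0.01, -0.25, -0.19 and -0.14. These comparisons share the 2% O2 libraries with those against normoxia.

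By point value, knockdown against control differed in sign between oxygen levels for most of the 10 genes. Only rin was called both higher in normoxia and lower at 2% O2, as were 0.151% of all tested genes. In normoxia 3 of the 10 genes were higher in knockdown flies, rin, Edc3 and me31B, where 5.90% of all tested genes were called higher. At 6% O2 me31B and Edc3 were higher (12.0% of tested genes called higher). At 2% O2 none was higher, and rin, bel, tral, Upf2 and pcm were lower (8.50% called lower). By point value 8 of the 10 genes were higher in knockdown flies in normoxia and lower at 2% O2, a pattern that 20.1% of all tested genes had. The exceptions were me31B and Upf1, whose differences at 2% O2 were 0.01 and 0.01. Without knockdown 2% O2 replicate 3, rin was not called at 2% O2 (-0.139, adjusted p = 0.138, limma). The 2% O2 difference of Ge-1 was then 0.00353, no longer below 0.

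**Figure D3:**
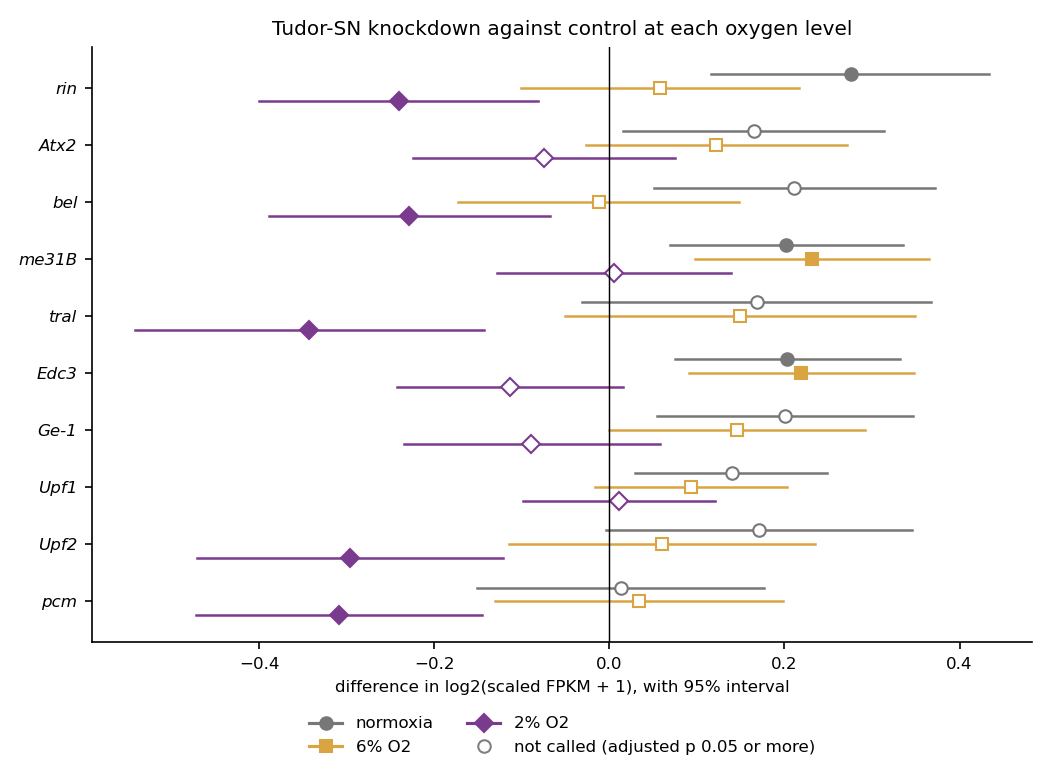
Difference in log2(scaled FPKM + 1) between knockdown and control flies (horizontal axis) for each gene at 3 oxygen levels, with 95% intervals from the limma fit. Filled symbols passed at an adjusted p under 0.05, and for rin, bel, tral, Upf2 and pcm the 2% O2 value (diamonds) is filled and below 0.

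In normoxia the largest difference was that of rin, 0.28 (SE 0.0748, adjusted p = 0.0232, limma), with knockdown libraries of 187.8 to 197.1 and control libraries of 152.2 to 163.6 scaled FPKM. me31B was higher by 0.20 (SE 0.0628, adjusted p = 0.0407) and Edc3 by 0.20 (SE 0.0605, adjusted p = 0.0342, limma). The genotypes were separate for 9 of the 10 genes, all but pcm, where 21.5% of tested genes were separate and higher. No call remained without control normoxia replicate 1 or 3 or knockdown normoxia replicate 1 or 2, and 1 remained without knockdown normoxia replicate 3. At 6% O2 me31B differed by 0.23 (adjusted p = 0.0181) and Edc3 by 0.22 (adjusted p = 0.0192, limma). Neither was called without control 6% O2 replicate 1 or knockdown 6% O2 replicate 2, and 1 of them was without knockdown 6% O2 replicate 3.

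The mean level of the female germline markers moved with genotype in the same direction in normoxia. Their mean log2 level, centred over all libraries, was -0.0886 to 0.00716 in control normoxia and 0.108 to 0.12 in knockdown normoxia, and their summed level was 1609 to 1746 and 1882 to 1934 scaled FPKM, with 2 of 12 called higher and 0 lower. Muscle genes summed to 4239 to 6283 in control and 2708 to 3106 in knockdown normoxia (0 higher, 4 of 10 lower), photoreceptor genes to 1841 to 2530 and 1711 to 1932 (0 higher, 4 of 8 lower) and gut genes to 1682 to 2155 and 991.9 to 1606 (0 higher, 3 of 8 lower). In normoxia 5.90% of all tested genes were called higher and 10.1% lower. At 6% O2 the germline genes summed to 1608 to 1778 in control and 1783 to 1844 in knockdown flies (2 higher, 1 lower). At that oxygen level 12.0% of all tested genes were called higher and 12.6% lower. There 3 of 10 muscle genes (3958 to 4478 and 2612 to 3234), 5 of 8 photoreceptor genes (2125 to 2623 and 1612 to 1865) and 3 of 8 gut genes (1421 to 2762 and 1204 to 1324) were lower. Relative to the germline genes of the same library, none of the 10 genes was called in normoxia or at 6% O2. Their medians were then 0.02 and 0.02, and that scaling moved the median of all tested genes to -0.17 and -0.11. The part of the muscle, photoreceptor and gut genes in these differences was not tested.

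At 2% O2 tral differed most between genotypes, by -0.34 (SE 0.0939, adjusted p = 0.0177, limma), which put the knockdown mean at 79.2% of the control mean. pcm was lower by 0.31 on the log2 scale (SE 0.077, adjusted p = 0.0109), and tral and pcm were the 2 genes whose genotypes were separate at 2% O2, as 15.0% of tested genes were in that direction. Upf2 (-0.30, adjusted p = 0.0192), rin (-0.24, adjusted p = 0.0329) and bel (-0.23, adjusted p = 0.0433, limma) overlapped between genotypes, since 1 or more control libraries lay within the knockdown range. Without knockdown 2% O2 replicate 3 the count of 5 became 1 of 10, pcm at -0.20 (adjusted p = 0.0365, limma). tral, Upf2, rin and bel were then at -0.23, -0.20, -0.14 and -0.13 and did not pass. The count was also 1 without control 2% O2 replicate 3, 3 without knockdown 2% O2 replicate 1 and 0 without control 2% O2 replicate 1. These p-values use 1 estimate of the spread shared by all 6 groups. The CV of the 5 called genes was 12.6% to 14.6% in knockdown 2% O2 and 0.725% to 3.64% in knockdown normoxia. Fitting the compared groups alone gave 0 of 10. Germline genes summed to 1767 to 1850 in control and 1938 to 2218 scaled FPKM in knockdown flies at 2% O2. Of these 2 were called higher and 1 lower, where 11.7% and 8.50% of all tested genes were, and the list median was 0.0218. Relative to the germline genes 7 of the 10 genes were called lower, a count not repeated without knockdown 2% O2 replicate 3. The median of the 10 genes was then -0.246, beside -0.0749 for all tested genes, of which 20.9% were called in either direction. Yolk genes summed to 2001 to 2669 in control and 3009 to 4922 in knockdown flies at 2% O2 (2 of 3 higher), muscle genes to 5075 to 6199 and 3053 to 5257 (1 of 10 lower) and photoreceptor genes to 2455 to 2718 and 2323 to 2534 (3 of 8 lower), and their part was not tested.

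Averaged over the 3 oxygen levels, me31B (0.15, adjusted p = 0.00493), Edc3 (0.10, adjusted p = 0.0274) and Upf1 (0.08, adjusted p = 0.039, limma) were higher in knockdown flies, where 20.2% of tested genes were called higher. For the other 7 genes the average joins point values above 0 in normoxia with ones below 0 at 2% O2. The same holds for Edc3, at 0.20 in normoxia and -0.11 at 2% O2. The count was 1 of 10 without control normoxia replicate 3, control 6% O2 replicate 1, control 2% O2 replicate 2, knockdown normoxia replicate 1, knockdown 6% O2 replicate 2 or knockdown 2% O2 replicate 1. Relative to the germline genes 5 were called lower and none higher, with 46.4% of tested genes called in either direction. The medians were then -0.06 for the 10 genes and -0.108 for all tested genes.

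The change at 2% O2 itself was tested between genotypes as an interaction in the same fit. It was more negative in knockdown flies for all 10 genes by point value, with a median of -0.319, and passed for rin (-0.52, SE 0.106, adjusted p = 0.00986), tral (-0.51, SE 0.133, adjusted p = 0.0301), Upf2 (-0.47, SE 0.116, adjusted p = 0.0256), bel (-0.44, SE 0.107, adjusted p = 0.0226) and Edc3 (-0.32, SE 0.0855, adjusted p = 0.035, limma). Of all tested genes 2.21% were called in that direction and 5.43% in the other. pcm (-0.32, adjusted p = 0.0809), Ge-1 (-0.29, adjusted p = 0.0791), Atx2 (-0.24, adjusted p = 0.144), me31B (-0.20, adjusted p = 0.178) and Upf1 (-0.13, adjusted p = 0.279, limma) did not pass. Without knockdown 2% O2 replicate 3 the median of the 10 genes was -0.235.

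rin was called in all 22 alternatives of this test, at an adjusted p of up to 0.0341. The count over the 10 genes was less steady. It was 1 without control normoxia replicate 1 or 3, control 2% O2 replicate 1 or 3 or knockdown normoxia replicate 1, 2 without knockdown normoxia replicate 3 or knockdown 2% O2 replicate 3, and 3 without knockdown normoxia replicate 2. The genes left without knockdown 2% O2 replicate 3 were rin (-0.41, adjusted p = 0.015) and bel (-0.33, adjusted p = 0.0404, limma). For the response to 6% O2 no gene of the 9921 differed between genotypes, and 10.3% had an unadjusted p under 0.05, none of them among the 10.

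Ordered by group mean, the top place belonged to knockdown normoxia for 6 genes (16.0% of all tested genes) and to knockdown 6% O2 for the other 4 (14.9%). Knockdown 2% O2 was lowest for 8 (28.2% of all tested genes), or for 7 without its replicate 3. me31B and Upf1 were lowest in control 2% O2, where they did not differ from knockdown 2% O2 beyond the spread. Most neighbours in these orders overlapped. For rin the sets of libraries were separate between control 6% O2 and control normoxia and between control normoxia and control 2% O2, and all other neighbours overlapped. For Atx2 and Edc3 the single gap lay between knockdown normoxia and control 6% O2, and for me31B between knockdown normoxia and knockdown 6% O2. For tral and pcm the gaps were above and below control 2% O2. The highest group mean was 2.02 times the lowest for Upf2, 1.92 times for rin, 1.70 times for tral and 1.25 times for me31B.

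Other genes of the same processes were taken from lists by role, 62 genes in all, of which 21 fell and 5 rose at 2% O2 in control flies and 44 fell and 6 rose in knockdown flies. Medians of the 62 were -0.12 and -0.26, milder than those of the 10 genes described above. Of all tested genes 14.7% were called lower and 15.4% higher in control flies, and 27.0% and 28.5% in knockdown flies.

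**Figure D4:**
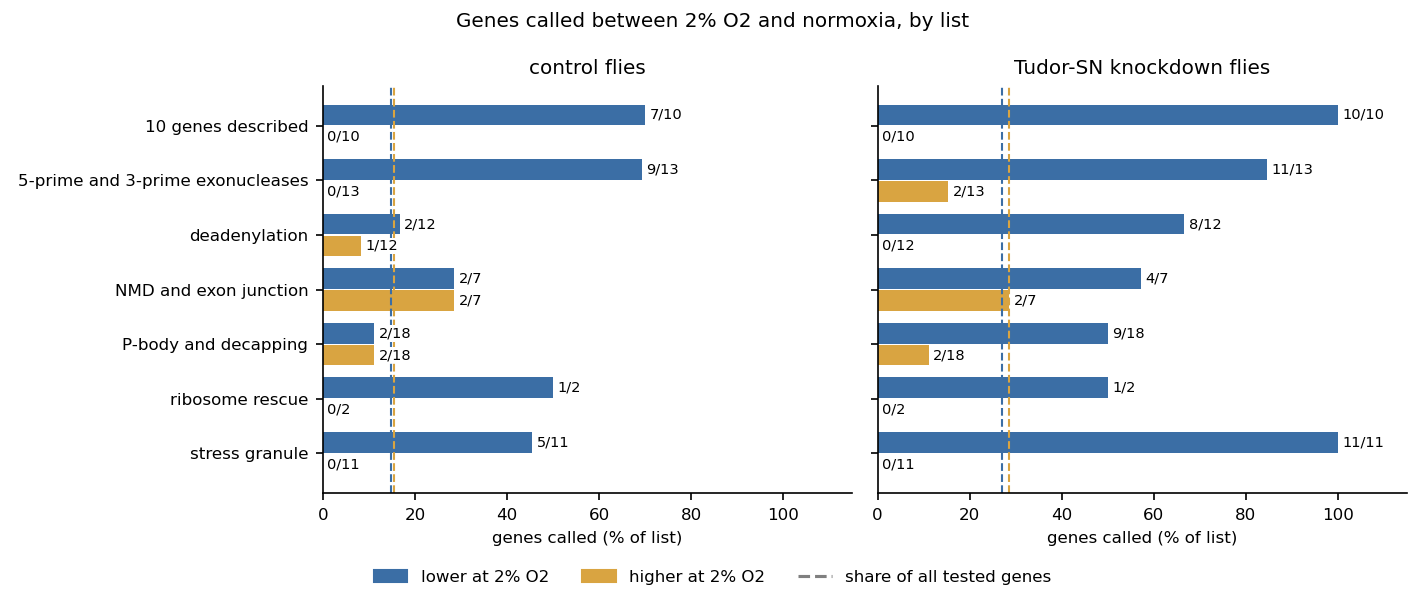
Share of each list (horizontal axis, percent of genes) called lower (blue) or higher (orange) at 2% O2 against normoxia in control and knockdown flies, with counts beside the bars. Dashed lines are the shares of all tested genes, and the stress-granule list reaches 11 of 11 lower in knockdown flies.

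All 11 stress-granule genes fell in knockdown flies and 5 of them in control flies, where 27.0% and 14.7% of all tested genes did. Fmr1, an RNA-binding repressor of translation, fell by 0.35 in control and 0.77 in knockdown flies (adjusted p = 0.0107 and 6.23e-06), and eIF4G1, the scaffold of the cap-binding complex, by 0.23 and 0.44 (adjusted p = 0.00127 and 8.35e-07, limma).

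In the list of exonucleases and exosome subunits 9 of 13 fell in control and 11 in knockdown flies, where 14.7% and 27.0% of all tested genes did. Rrp46 and Rrp42, subunits of the exosome ring, fell by 0.58 and 0.51 in control flies (adjusted p = 5.23e-05 and 0.000146), and Dis3, the catalytic subunit, by 0.27 (adjusted p = 0.00122, limma). Rrp6, the nuclear exosome nuclease, was higher by 0.22 at 2% O2 in knockdown flies (adjusted p = 0.00138, limma). Of 12 deadenylation genes 2 fell and 1 rose in control and 8 fell in knockdown flies. The control counts were near the shares of all tested genes, 14.7% lower and 15.4% higher, and 27.0% were lower in knockdown flies. Rga, the NOT2 subunit of the CCR4-NOT complex, fell by 0.15 and 0.50 (adjusted p = 0.0402 and 1.44e-06, limma). In control flies Rcd-1, another subunit of that complex, fell by 0.17 (adjusted p = 0.0375) and Tob, which recruits deadenylases, rose by 0.22 (adjusted p = 0.0302, limma). pelo, a factor that releases stalled ribosomes, fell by 0.30 and 0.57 (adjusted p = 0.00209 and 2.74e-06, limma), and its partner HBS1 differed by -0.08 and -0.11 without passing.

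Of the 18 further P-body and decapping genes 2 fell and 2 rose in control flies, where 14.7% and 15.4% of all tested genes did. In knockdown flies 9 fell and 2 rose, where 27.0% and 28.5% of all tested genes did. Some names of that list, Dcp1 and Dcp2 among them, matched no deposited symbol and were not examined. 4E-T, which holds eIF4E in a repressed state, rose from 46.82 ± 2.19 to 63.60 ± 2.51 scaled FPKM in control flies and from 54.74 ± 2.20 to 71.75 ± 1.78 in knockdown flies (SD, n = 3). Its log2 differences were 0.43 and 0.38 (adjusted p = 0.000104 and 0.000104, limma). nos and orb, both also in the list of germline markers, went apart. nos, a translational repressor, rose by 0.73 and 0.99 and orb, the fly CPEB protein, fell by 0.61 and 1.19 on the log2 scale in control and knockdown flies (limma adjusted p of 0.000135 or lower).

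The list of nonsense-mediated decay and exon junction genes went both ways as well. Of its 7 genes 2 fell and 2 rose in control flies, where 14.7% and 15.4% of all tested genes did. In knockdown flies 4 of the 7 fell and 2 rose, where 27.0% and 28.5% of all tested genes did. Beside the falls of Upf1 and Upf2, Upf3 fell by 0.23 and 0.29 in control and knockdown flies (adjusted p = 0.0225 and 0.00268). Smg5 and Smg6, which act after Upf1 is phosphorylated, rose. Smg5 went from 23.58 ± 0.809 to 31.48 ± 0.813 scaled FPKM in control and from 24.25 ± 1.48 to 38.46 ± 2.58 in knockdown flies (SD, n = 3). The log2 differences were 0.40 and 0.64 for Smg5 (adjusted p = 7.31e-05 and 1.9e-07) and 0.17 and 0.34 for Smg6 (adjusted p = 0.008 and 1.02e-05, limma). mago, a core protein of the exon junction complex, had the smallest adjusted p of the 62 genes for the genotype difference. It held 93.54 ± 4.12 scaled FPKM in control and 58.71 ± 0.133 in knockdown normoxia (SD, n = 3), and averaged over oxygen levels its log2 difference was -0.65 (adjusted p = 7.93e-10, limma).

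Over the same average 15 of the 62 genes were higher and 4 lower in knockdown flies, beside 20.2% of all tested genes called higher and 21.6% lower. Ski6, an exosome ring subunit, was higher by 0.26 (adjusted p = 0.000257), 4E-T by 0.18 (adjusted p = 0.00122) and Patr-1, a decapping activator, by 0.14 (adjusted p = 0.0135). Rrp46, Smg5, Ubqn (ubiquilin), Rrp6, Not3 (a subunit of CCR4-NOT), eIF4E1 (the cap-binding protein) and Smg6 were higher by 0.15, 0.12, 0.11, 0.10, 0.09, 0.09 and 0.08, at adjusted p of 0.0257 or lower. CG9344 was lower by 0.55 (adjusted p = 4.58e-06). HBS1 was lower by 0.36 (adjusted p = 5.68e-06) and lark, an RNA-binding protein, by 0.13 (adjusted p = 0.0274, limma). In the interaction at 2% O2, 4 of the 62 were called lower and none higher, where 2.21% of tested genes were called lower and 5.43% higher.

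The genes described here are long. The longest annotated transcript reached 4000 bp or more for 8 of the 10, as for 17.0% of the tested genes with a length, whose median was 1873 bp. The exceptions were me31B, at 1699 bp, which changed least of the 10 in knockdown flies, and bel, at 3970 bp, which had the fourth largest fall there. Among all tested genes the change at 2% O2 in knockdown flies had a median of 0.07 below 1000 bp, -0.04 between 3000 and 4000 bp, -0.10 between 4000 and 5000 bp, -0.07 between 5000 and 6000 bp and -0.05 from 6000 bp on. The median of the 4 genes described here in each of the ranges from 4000 to 5000 and from 5000 to 6000 bp was -0.51 and -0.72. In control flies the medians of all genes in those ranges were -0.01 and -0.01, and those of the members of the set were -0.21 and -0.33. The part of length in the result beyond these values was not tested.

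**Figure D5:**
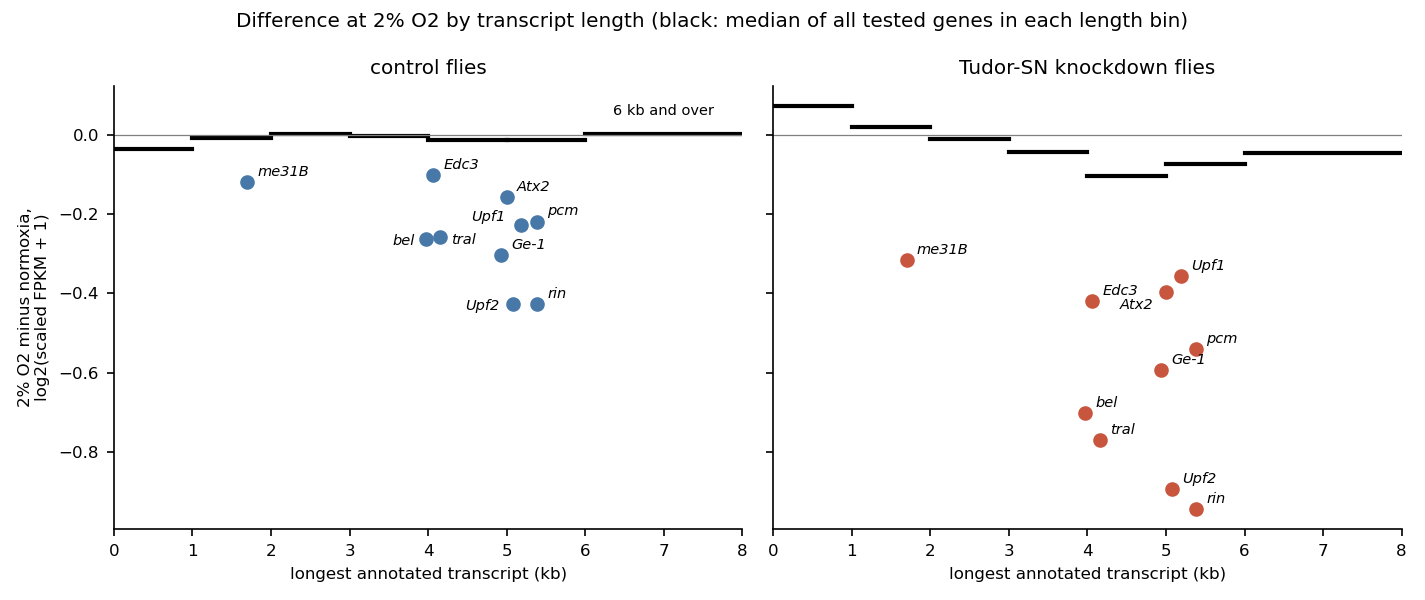
Difference in log2(scaled FPKM + 1) between 2% O2 and normoxia (vertical axis) against the longest annotated transcript in kb (horizontal axis) in control and knockdown flies. Points are the 10 genes and black lines are medians of all tested genes by length, the last covering 6 kb and over, and every point lies below its line.

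Genes with the most similar profile were found by the root mean square difference between centred log2 profiles over the 18 libraries, among 8148 genes averaging 5 FPKM or more. The nearest to rin was Naa15-16 (0.0559), which averaged 122.2 scaled FPKM in knockdown normoxia and 69.38 in knockdown 2% O2. The nearest to Upf2 was eIF5B (0.0633), to bel Mi-2 (0.0426), to tral yem (0.0509), to me31B Mkrn1 (0.0329) and to pcm shtd (0.0328). Upf1 was nearest to Spp (0.0395), Atx2 to RhoGAP71E (0.0454), Edc3 to Rok (0.041) and Ge-1 to Uba1 (0.0354). Within the set, rin and Upf2 were each other's nearest at 0.0809, with 4 of the 8148 genes nearer to Upf2 and 8 nearer to rin. Atx2 and Edc3 were each other's nearest at 0.0612, with 46 genes nearer to Atx2 and 40 to Edc3. The same held for bel and Ge-1 at 0.0844 (95 and 156 genes nearer) and for tral and pcm at 0.0933 (49 and 179). me31B stood furthest from the rest, at 0.101 from Edc3, with 991 genes nearer.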

How the data were processed

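The authors deposited 1 table of FPKM per library, for 18 libraries of polyadenylated RNA (BGISEQ-500 reads, per the labels). TopHat2, HTSeq and Cufflinks and build BDGP6 are named in the submitters' processing notes, with no versions. Whether the libraries keep strand is not given in the sources used here. Starts were deposited counting from 0 and are printed 1 higher.

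Each library was scaled by a median-of-ratios factor (0.9468 to 1.0359) from 9068 genes above 1 FPKM in every library. The 9921 genes averaging 1 FPKM or more were fitted as log2(scaled FPKM + 1) by limma (version 3.58.1, under R 4.3.3), using a mean per group (6) and eBayes with trend and robust options. Benjamini-Hochberg adjustment ran over all tested genes within each of 12 comparisons, and an adjusted p under 0.05 was called. The fit was tested on simulated data. Tudor-SN was compared by exact permutation tests.

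The 10 genes, the role lists and the marker lists were chosen with earlier results of these data known. From each role list up to 3 genes of smallest adjusted p were named in the averaged genotype comparison and in 2% O2 against normoxia in control flies. Some genes so named are given in further comparisons too. The values of 1 such gene are not reported here. Of names in the lists, those that matched no deposited symbol were not used here. Sequences and motifs of the genes were not analysed here. Any pair of libraries shared at most 2 identical values above 0.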

Additional observations from a re-analysis of the deposited data

Results flagged for a closer look

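For 5 genes the change at 2% O2 differed between the genotypes by the interaction term of the limma fit, which tests that difference itself, over 3 libraries in each of 4 groups. The differences on the log2(scaled FPKM + 1) scale, knockdown minus control, were -0.52 for rin (adjusted p = 0.00986), -0.44 for bel (adjusted p = 0.0226), -0.51 for tral (adjusted p = 0.0301), -0.47 for Upf2 (adjusted p = 0.0256) and -0.32 for Edc3 (adjusted p = 0.035). In all 5 the knockdown groups in normoxia and at 2% O2 did not overlap, and Edc3 alone among them was not called in control flies.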

How the results depend on the processing

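The falls of all 10 genes at 2% O2 in knockdown flies held in all 16 alternatives for each gene. In control flies the count of 7 for 2% O2 against normoxia became 5 without the filter on low values. It became 6 with quantile normalisation, with array weights or with the compared groups alone. Without the filter the counts for knockdown against control became 2 in normoxia and 4 at 2% O2. Some other counts shifted as well, and those that moved furthest in proportion were as follows. With FPKM as deposited the count for knockdown against control became 1 of 10 in normoxia and 1 averaged over oxygen levels. With array weights these counts became 8 and 5, and that of the interaction at 2% O2 became 8. Quantile normalisation gave 1 at 6% O2. Fitting the compared groups alone gave 0 at 2% O2 and 3 for the interaction at 2% O2. Levels relative to the germline genes, an alternative added after the data were seen, gave 0 in normoxia, 0 at 6% O2 and 5 lower for the average, where rin (-0.08), Upf1 (-0.0297), Edc3 (-0.00787), Atx2 (-0.0399) and Ge-1 (-0.0252) changed sign, the last 2 passing in neither fit. The cause was not tested. Leaving out 1 library gave 0 to 4 for knockdown against control in normoxia, 0 to 2 at 6% O2, 0 to 5 at 2% O2 and 1 to 4 averaged. For 2% O2 against normoxia it gave 4 to 7 in control and 10 to 10 in knockdown flies, against 6% O2 5 to 8 and 10 to 10, and for the interaction 1 to 7 at 2% O2. The comparisons of 6% O2 with normoxia and its interaction stayed at 0 to 0. Replicate numbers do not pair the libraries: deviations from the group means correlated over 0.1 in 11 of 45 pairs of the same number and 28 of 90 of different numbers, and 3 of 18 libraries were nearest to their own number. With the number as a replicate block the counts were 3, 2, 4 and 2 for knockdown against control in normoxia, at 6% O2, at 2% O2 and averaged, 6 and 10 for 2% O2 against normoxia in control and knockdown flies, and 5 for the interaction at 2% O2. The 1326 values of single genes under the alternatives cover only pairs of gene and comparison that were called in 1 or more of the fits. Of these values 128 no longer passed and 37 newly passed with the same sign. The sign differed in 22, and 19 of these passed neither way. FPKM carry no counts, so counting error is unknown, and knockdown 2% O2 replicate 3 was the shallowest by relative depth. The search for promoter and protein motifs was not run, and the split by length was added after the lengths were seen.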
